A study of Mus musculus with 6 samples.

Results

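Imprinted genes are genes of which the copy from 1 parent is used and the other is silenced, and 34 of them were listed here and looked up by symbol in a table of RNA read counts from mouse embryonic fibroblasts. Of the 34, 24 had a row among the 23842 genes of the table, and 10 had none: Meg3, Rian, Mirg, Rtl1, Zim1, Usp29, Snrpn, Ndn, Magel2 and Nnat. These 10 were not analysed here. The 24 comprised 14 genes known to be expressed from the paternal copy, 9 from the maternal copy, and Gnas, a locus with transcripts of either kind. Sequencing of total RNA compared 3 libraries of cells with the genotype NGLY1-/- (knockout) and 3 libraries of WT (wild-type) cells, each from fibroblasts of C57BL/6 mice grown without treatment in high-glucose medium with serum. NGLY1 is the cytosolic enzyme that removes N-linked sugars from misfolded glycoproteins. The labels do not give the age of the embryos, nor whether each library of a group had its own embryo or culture. The p-values below therefore reflect how far these libraries scatter, and that scatter may be technical only.

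Imprinted genes lie in clusters, and in each cluster a control region carries DNA methylation on the copy from 1 parent. That mark is set in the germ line and kept in body cells by the maintenance methyltransferase DNMT1 and by the zinc finger protein ZFP57 with its partner TRIM28. Many paternally expressed genes, such as Igf2, favour growth of the embryo, and many maternally expressed genes, such as H19, Igf2r, Grb10 and Cdkn1c, restrain it. A read count per gene adds both parental copies, so none of the values here tells which copy was read.

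Total counts ran from 27323577 to 37841558 per library. Ngly1, the targeted gene, had 618, 420 and 457 counts in the knockout and 668, 632 and 307 in the wild-type libraries. With the deleted stretch not named in the labels, these counts do not check the genotype, and each direction below rests on the labels. Within a group, pairs of libraries were farther apart than counting alone gives: the median chi-square per gene was 3.29 to 4.24 among knockout pairs, 2.23 for wild-type replicates 1 and 2 and 6.37 to 7.92 for the wild-type pairs with replicate 3. Structural RNA took 3.54% to 8.08% of the counts in knockout and 4.49% to 6.04% in wild-type libraries. Fibroblast markers were abundant in every library: 14 of 14 had a row, with summed levels of 11290 to 12590 CPM (counts scaled to library size with TMM factors) in knockout and 9062 to 10370 CPM in wild-type libraries. Fn1 alone held 6839 to 7761 CPM of this in knockout and 1845 to 2335 CPM in wild-type libraries. By group mean, Vim went from 1741 CPM in wild type to 677 CPM in knockout, and S100a4 from 1008 to 133 CPM. Of the 13 tested, 2 were higher and 8 lower in knockout (76.9% called, where 60.9% of all tested genes were called at the threshold given below), and the matrix proteoglycan gene Lum had 0 or 1 count in each library.

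Markers of other cell types were few among the tested genes, and their calls are to be read against the same 60.9%. Of 4 tested epithelial markers, 3 were lower in knockout (summed levels of 22.1 to 31.3 CPM against 54.4 to 108 CPM, nearly all from Krt19). Of these, Krt8 and Cdh1 had enough counts for testing in all 3 libraries of a group only in wild type, where they were higher. Their calls thus lean on how genes were admitted to the test. Of 4 neural markers, 2 were higher (57.5 to 69.9 against 36.6 to 44.7 CPM, mostly Tubb3 and Map2). Muscle markers summed to 3.36 to 3.84 CPM in knockout and 0.146 to 0.836 CPM in wild type, with Des as the only member tested, which was higher. Des and the called neural gene Sox2 had enough counts for testing in all 3 libraries only in knockout, where they were higher. The same limit thus holds for their calls. Adipocyte markers summed to 4.17 to 4.6 and 3.78 to 4.6 CPM (1 higher and 1 lower of 2). Macrophage and leukocyte markers summed to 8.96 to 10.3 and 5.34 to 8.46 CPM (1 higher of 2), endothelial markers to 2.74 to 2.89 and 1.77 to 2.23 CPM (1 higher of 2), germ and pluripotent cell markers to 0.366 to 0.826 and 0.549 to 1.25 CPM (1 lower of 2), and placental markers to 1.04 to 1.49 and 0.745 to 1.76 CPM (0 called of 1). Nanog, the germ and pluripotent cell marker called, likewise had enough counts in all 3 libraries only in wild type. Within the endothelial list and the macrophage and leukocyte list, the genes did not go one way. The endothelial gene Kdr had 67 to 82 counts in knockout and 38 to 40 in wild-type libraries, while Pecam1 had 0 to 1 and 5 to 15. The leukocyte gene Ptprc had 3 counts in 1 wild-type library and 0 in the rest, while Cd14 had 215 to 261 counts in knockout and 86 to 194 in wild-type libraries. The neural gene Sox2 had 60 to 85 and 7 to 11 counts. The part of these markers in the results below was not tested. In a bulk sample, fewer cells of a type and less RNA per cell cannot be told apart.

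The imprinted genes did not move as a block. Of the 24, 21 had enough counts to be tested with edgeR's quasi-likelihood test, in which a gene was called at a Benjamini-Hochberg adjusted p under 0.05. Of these 21, 7 were higher in knockout, 6 lower and 8 not called. The 13 called are 61.9% of those tested, against 60.9% of all 15039 genes tested (30.7% higher and 30.2% lower), so the share called was close to the background. Past 2-fold were 7 of the 21, against 28.5% of all tested genes. Peg3 and Mest, among these 7 and the 13 called, passed the filter on low counts only through the knockout libraries. Both counts thus hold genes that had to differ. The median log2 fold change was 0.09 for the 21 and -0.04 for all tested genes, and the median size of the change, whatever its direction, was 0.67 and 0.59.

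Split by parental origin, 12 paternally expressed genes were tested, of which 5 were higher (Igf2, Peg3, Mest, Sgce and Slc38a4), 3 lower (Airn, Peg10 and Peg13) and 4 not called (Plagl1, Impact, Zrsr1 and Kcnq1ot1), with a median log2 fold change of 0.20. Peg3 and Mest passed the filter on low counts only through the knockout libraries, where they were higher, so the count of 5 holds 2 genes that had to differ. Of 8 maternally expressed genes tested, 3 were lower (H19, Igf2r and Grb10), 1 was higher (Nap1l4) and 4 were not called (Copg2, Cdkn1c, Phlda2 and Commd1), with a median of -0.56. Gnas was higher. These medians are descriptions of small groups, and neither direction was without exceptions. Airn, Peg10 and Peg13 went against the other called paternal genes, and Nap1l4 against the other called maternal ones. Parental origin was taken from general knowledge of each gene, and whether it holds in these fibroblasts was not tested.

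**Figure D1:**
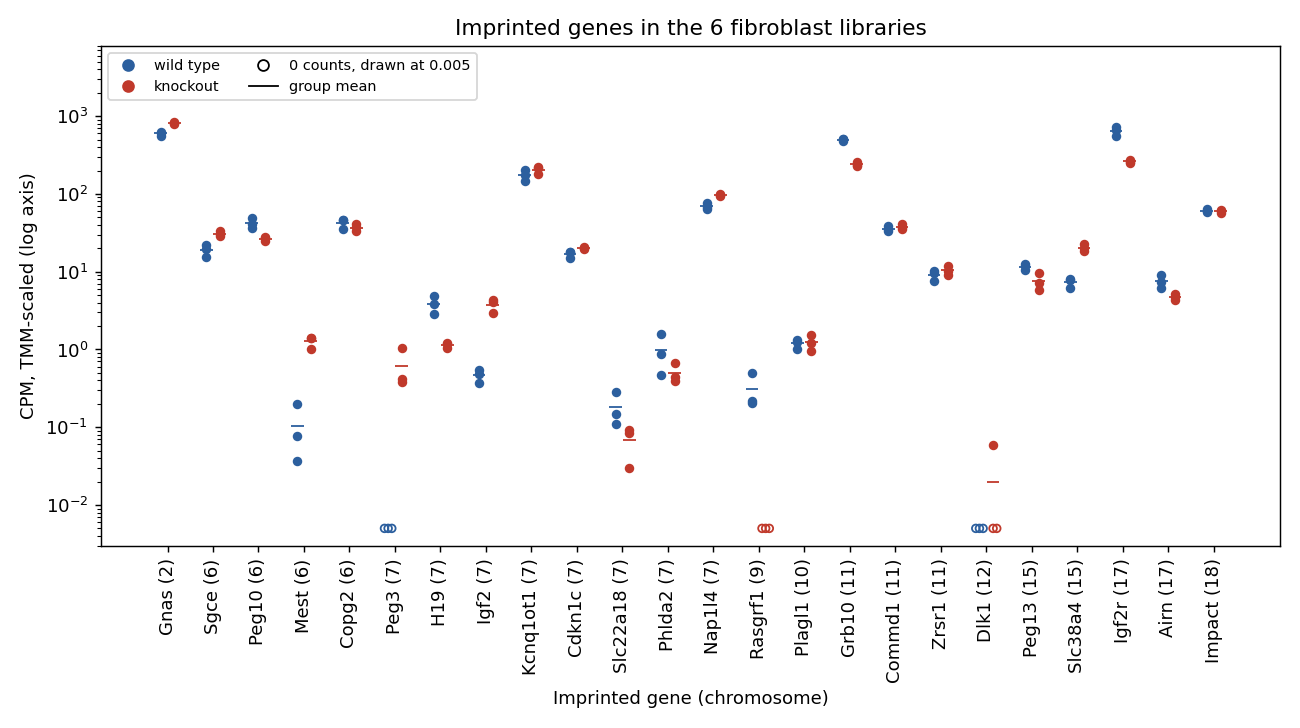
Level of each of the 24 imprinted genes (CPM on a log axis) in the 3 wild-type (blue) and 3 knockout (red) libraries, ordered by chromosome, which is given in parentheses. Short lines are group means, and open circles are libraries with 0 counts. Levels run from 0 counts for Dlk1, Peg3 and Rasgrf1 in some libraries to 833 CPM for Gnas, and the groups stand apart for Igf2, H19, Mest and Igf2r.

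The pair at the distal end of chromosome 7 went opposite ways. Igf2 encodes insulin-like growth factor 2, a fetal growth factor, and lies at 142650768 to 142666816 in GRCm38. It had 99, 132 and 155 counts in knockout and 22, 19 and 10 in wild-type libraries. In CPM, Igf2 stood at 3.77 ± 0.757 in knockout against 0.465 ± 0.0897 in wild type (SD, n = 3 each). Every knockout library lay above every wild-type library, with a log2 fold change of 2.99 ± 0.30 (SE; 7.96-fold, adjusted p = 1.95e-05 in edgeR). H19, a noncoding RNA that shares enhancers with Igf2 and is read from the other parental copy, lies nearby at 142575530 to 142578146.

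H19 had 40, 40 and 37 counts in knockout and 115, 149 and 134 in wild-type libraries. This came to 1.15 ± 0.0923 CPM against 3.85 ± 1.04 CPM (SD, n = 3 each), again without overlap between the groups. The log2 fold change was -1.74 ± 0.28 (SE; 3.34-fold lower, adjusted p = 0.000374). The count of H19 relative to Igf2 within a library needs no scaling between libraries. On the log2 scale it was -1.31, -1.72 and -2.07 in knockout and 2.39, 2.97 and 3.74 in wild type, so H19 had fewer counts than Igf2 in each knockout library and more in each wild-type library.

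That ratio differed by -4.73 between the group means (exact permutation test, two-sided, p = 0.1, which is the smallest that 3 against 3 libraries allow; adjusted over 7 such pairs, 0.14). Levels of both genes were low for their length. As CPM per kilobase of exon (RPKM), H19 stood at 1.57 in wild type and 0.466 in knockout, above 22.5% and 12.9% of the tested genes. Igf2 stood at 0.0812 and 0.659 RPKM, above 3.7% and 15.1% of them. Igf2os, an antisense transcript within Igf2, had 7 counts over the knockout libraries and 0 over the wild-type ones, and reads of the overlap may belong to either gene.

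The 20 nearest tested genes around this pair that are in neither list of imprinted genes spanned 2.75 Mb and had a median log2 fold change of -0.73, with 5 higher and 11 lower, while the median of all 1047 tested genes on chromosome 7 was 0.15. H19 therefore lay on the same side as its neighbours, by -1.01 below them, and Igf2 stood 3.72 above them.

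The receptor that removes IGF2 fell. Igf2r encodes the mannose 6-phosphate receptor, which carries IGF2 and lysosomal enzymes to the lysosome, and lies on chromosome 17 at 12682406 to 12769706. It had 9360, 8498 and 8909 counts in knockout and 29283, 25584 and 15155 in wild-type libraries, or 262 ± 12.7 against 644 ± 83.4 CPM (SD, n = 3 each). The groups did not overlap, and the log2 fold change was -1.30 ± 0.11 (SE; 2.46-fold lower, adjusted p = 7.82e-06 in edgeR).

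Airn, the paternally read noncoding RNA whose transcription across the Igf2r promoter silences the paternal copy of Igf2r, starts inside Igf2r and runs against it. It had 162, 141 and 185 counts in knockout and 371, 243 and 201 in wild-type libraries, a log2 fold change of -0.67 ± 0.19 (SE; adjusted p = 0.0118 in edgeR). The call of Airn was lost without knockout replicate 2 (adjusted p = 0.0556) or wild-type replicate 1 (0.0553). Airn thus fell with Igf2r and not against it, although 28396 bases of the genes overlap and, with no strand setting of the counting given, reads of the overlap cannot be told apart.

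The log2 count ratio of Igf2r to Airn was 5.59 to 5.91 in knockout and 6.24 to 6.72 in wild-type libraries, lower in knockout by -0.63 (exact permutation p = 0.1, adjusted 0.14). Around them, the 20 nearest genes had a median log2 fold change of -0.78, with 2 higher and 12 lower, against -0.17 for chromosome 17. Igf2r lay -0.52 below its neighbours, and Airn, at 0.11 above them, fell no more than the genes around it.

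Grb10, an adaptor protein that dampens signalling from the insulin and IGF1 receptors, also fell. It lies on chromosome 11 at 11930499 to 12037428 and had 8067, 7591 and 9084 counts in knockout against 19471, 19909 and 14030 in wild-type libraries. The level was 242 ± 12.8 against 501 ± 19.5 CPM (SD, n = 3 each), with no overlap. The log2 fold change was -1.05 ± 0.09 (SE; 2.07-fold lower, adjusted p = 7.39e-06 in edgeR), while its 20 nearest genes had a median of 0.10 and chromosome 11 one of -0.02. Grb10 and Igf2r were among the more abundant genes for their length, at 55.1 and 69.2 RPKM in wild type. An unnamed locus, LOC102631979, overlaps Grb10 by 9120 bases, and reads there may belong to either.

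Slc38a4, a paternally expressed transporter of neutral and cationic amino acids, rose. On chromosome 15 at 96994816 to 97055956, it had 762, 657 and 650 counts in knockout and 317, 315 and 171 in wild-type libraries, or 20.3 ± 2.08 against 7.38 ± 0.984 CPM (SD, n = 3 each). The groups did not overlap (log2 fold change 1.45 ± 0.15 SE, 2.74-fold, adjusted p = 1.89e-05 in edgeR), and the median of its 20 nearest genes was 0.24.

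Shown next are the upstream windows of called members with the smallest p whose mean count reached 100 in the higher group (at most 5), since these genes carry the firmest differences. That of Mest was added after its values were seen. H19, the fifth, is named only. Each is the 250 bases before a transcription start in RefSeq (GRCm38.p6), 5′ to 3′ on the gene's strand: chr17:12769707-12769956 (minus strand) for Igf2r, chr11:12037421-12037670 (minus) for Grb10, chr7:142666817-142667066 (minus) for Igf2, chr15:97055957-97056206 (minus) for Slc38a4 and chr6:30737800-30738049 (plus) for Mest. The start is the most upstream one in that table, except for Mest, where it is a downstream start whose window holds the motif. Capitals mark TGCCGC, read on either strand (GCGGCA on the other), the hexamer that ZFP57 binds when it is methylated.
Igf2r: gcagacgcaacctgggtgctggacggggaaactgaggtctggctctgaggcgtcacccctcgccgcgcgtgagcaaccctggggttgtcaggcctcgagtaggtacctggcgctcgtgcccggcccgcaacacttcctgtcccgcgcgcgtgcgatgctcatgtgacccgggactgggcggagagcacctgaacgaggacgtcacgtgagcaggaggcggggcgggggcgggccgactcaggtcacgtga
Grb10: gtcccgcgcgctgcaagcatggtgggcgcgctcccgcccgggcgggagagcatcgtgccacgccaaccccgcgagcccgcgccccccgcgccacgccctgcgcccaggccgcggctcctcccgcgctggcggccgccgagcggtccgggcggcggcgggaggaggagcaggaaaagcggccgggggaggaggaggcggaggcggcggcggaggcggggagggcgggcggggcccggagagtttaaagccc
Igf2: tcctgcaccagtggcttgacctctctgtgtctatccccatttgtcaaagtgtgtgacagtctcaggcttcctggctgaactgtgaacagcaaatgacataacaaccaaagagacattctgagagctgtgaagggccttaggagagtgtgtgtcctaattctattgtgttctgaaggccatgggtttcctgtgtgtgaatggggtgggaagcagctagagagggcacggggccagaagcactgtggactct
Slc38a4: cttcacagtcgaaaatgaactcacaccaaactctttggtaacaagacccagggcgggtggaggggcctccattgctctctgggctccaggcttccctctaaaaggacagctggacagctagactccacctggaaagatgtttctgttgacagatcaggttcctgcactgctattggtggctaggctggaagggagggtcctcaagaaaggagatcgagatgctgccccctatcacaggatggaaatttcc
Mest: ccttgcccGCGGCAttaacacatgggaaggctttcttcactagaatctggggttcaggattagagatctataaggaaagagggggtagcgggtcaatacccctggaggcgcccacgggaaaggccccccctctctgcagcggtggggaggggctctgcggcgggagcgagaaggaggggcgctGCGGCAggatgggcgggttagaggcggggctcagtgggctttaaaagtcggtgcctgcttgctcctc
The hexamer was absent from the windows of Igf2r, Grb10, Igf2 and Slc38a4 and present in 2 copies in that of Mest. In the 250 bases before each start of a member, 4 of 29 starts held it (13.8%; 17 of the 24 members had starts in the RefSeq table). Of 32851 starts of all genes, 8.68% held it. The 4 were 2 starts of Mest that lie 3 bases apart, so that their windows overlap, and a start each of Copg2 and Plagl1. The share of G and C in the windows shown was 69.2% for Igf2r, 81.2% for Grb10, 50.8% for Igf2, 52.8% for Slc38a4 and 62.4% for Mest. A match is a description of these letters only, and methylation was not measured.

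On chromosome 6 the imprinted genes split. Mest, an enzyme of the alpha/beta hydrolase fold made in embryonic mesoderm, had 47, 46 and 36 counts in knockout and 8, 3 and 1 in wild-type libraries. This gave 1.27 ± 0.219 against 0.103 ± 0.0832 CPM (SD, n = 3 each) and a log2 fold change of 3.48 ± 0.51 (SE; adjusted p = 0.000225 in edgeR, in a test it entered through the knockout counts alone). The groups did not overlap, and leaving out wild-type replicate 1 raised the log2 fold change of Mest to 4.32. Its neighbour Copg2, a subunit of the COPI vesicle coat whose end overlaps that of Mest by 913 bases, had 1374, 1221 and 1176 counts in knockout and 1891, 1804 and 955 in wild-type libraries.

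The log2 fold change of Copg2 was -0.21 ± 0.13 (SE; adjusted p = 0.205 in edgeR), and it passed the threshold without wild-type replicate 3 (log2 fold change -0.31, adjusted p = 0.0156). The log2 count ratio of Mest to Copg2 was -5.03 to -4.73 in knockout and -9.90 to -7.89 in wild-type libraries, a difference of 4.13 (exact permutation p = 0.1, adjusted 0.14).

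Peg10 and Sgce, which share a control region and are both read from the paternal copy in opposite directions, went opposite ways. Peg10, a gene derived from a retrotransposon and needed for the placenta, had 925, 804 and 989 counts in knockout and 1675, 1423 and 1358 in wild-type libraries. Its log2 fold change was -0.68 ± 0.13 (SE; adjusted p = 0.0012 in edgeR). Sgce, encoding the membrane protein epsilon-sarcoglycan, had 1126, 1007 and 1024 counts against 795, 861 and 418, with a log2 fold change of 0.70 ± 0.14 (SE; adjusted p = 0.00176).

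Neither gene's groups overlapped on the CPM scale, and Peg10 had more counts than Sgce in the 3 wild-type libraries (log2 ratio 0.73 to 1.70) and fewer in the 3 knockout libraries (-0.33 to -0.05). The difference in that ratio was -1.39 (exact permutation p = 0.1, adjusted 0.14). Chromosome 6 as a whole was lower in knockout, with a median log2 fold change of -0.41 over 724 tested genes. Peg10 lay -0.26 below that median and Sgce 1.11 above it.

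In the cluster controlled by Kcnq1ot1, next to Igf2 on chromosome 7, 1 of the 4 tested members was called. Kcnq1ot1, a long noncoding RNA read from the paternal copy that silences the genes around it, had 7503, 5858 and 7560 counts in knockout and 7196, 5781 and 5601 in wild-type libraries. The groups overlapped, with a log2 fold change of 0.21 ± 0.13 (SE; adjusted p = 0.193 in edgeR). It passed the threshold without wild-type replicate 3 (0.34, adjusted p = 0.0111) and without both libraries numbered 3 (0.31, adjusted p = 0.0305).

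The whole of Kcnq1ot1 lies within the gene Kcnq1, so reads there may belong to either. Kcnq1 itself was given 93 counts over all libraries. The cell cycle inhibitor gene Cdkn1c (p57), a target of Kcnq1ot1, had 659, 675 and 722 counts against 725, 705 and 404. This came to 20.1 ± 0.604 against 16.9 ± 1.84 CPM (SD, n = 3 each). The CPM values did not overlap, but the test did not pass (log2 fold change 0.25 ± 0.12 SE, adjusted p = 0.0941 in edgeR). The log2 count ratio of Cdkn1c to Kcnq1ot1 was -3.34 ± 0.20 in knockout and -3.38 ± 0.38 in wild type (SD, n = 3 each), a difference of 0.04 (exact permutation p = 1).

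Nap1l4, a histone chaperone gene at the edge of the cluster, was the member of it that rose. It had 96.1 ± 2.92 against 69.7 ± 7.01 CPM (SD, n = 3 each), a log2 fold change of 0.46 ± 0.10 (SE; adjusted p = 0.00219 in edgeR). Phlda2, which restrains placental growth, had 15, 22 and 14 counts in knockout and 19, 34 and 43 in wild-type libraries, with overlapping groups. Its log2 fold change of -0.92 ± 0.49 (SE) did not pass (adjusted p = 0.125), and it passed without wild-type replicate 1 (-1.27, adjusted p = 0.037). Without both libraries numbered 3 its log2 fold change was -0.25.

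The log2 count ratio of Phlda2 to Nap1l4 was lower in knockout by -1.29, with no overlap (exact permutation p = 0.1, adjusted 0.14). Slc22a18, a transporter of organic cations, was too low to test, with 1, 3 and 3 counts against 6, 11 and 3. Summed, this is a ratio of 2.73 in favour of wild type, with a counting interval (95%, exact) of 1.11 to 7.64. Intervals and floors cover counting error only. The 20 nearest genes had a median log2 fold change of -0.73, and Kcnq1ot1 and Cdkn1c lay 0.94 and 0.98 above it. That stretch overlaps the one around Igf2, so the equal median there is not a separate observation.

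**Figure D2:**
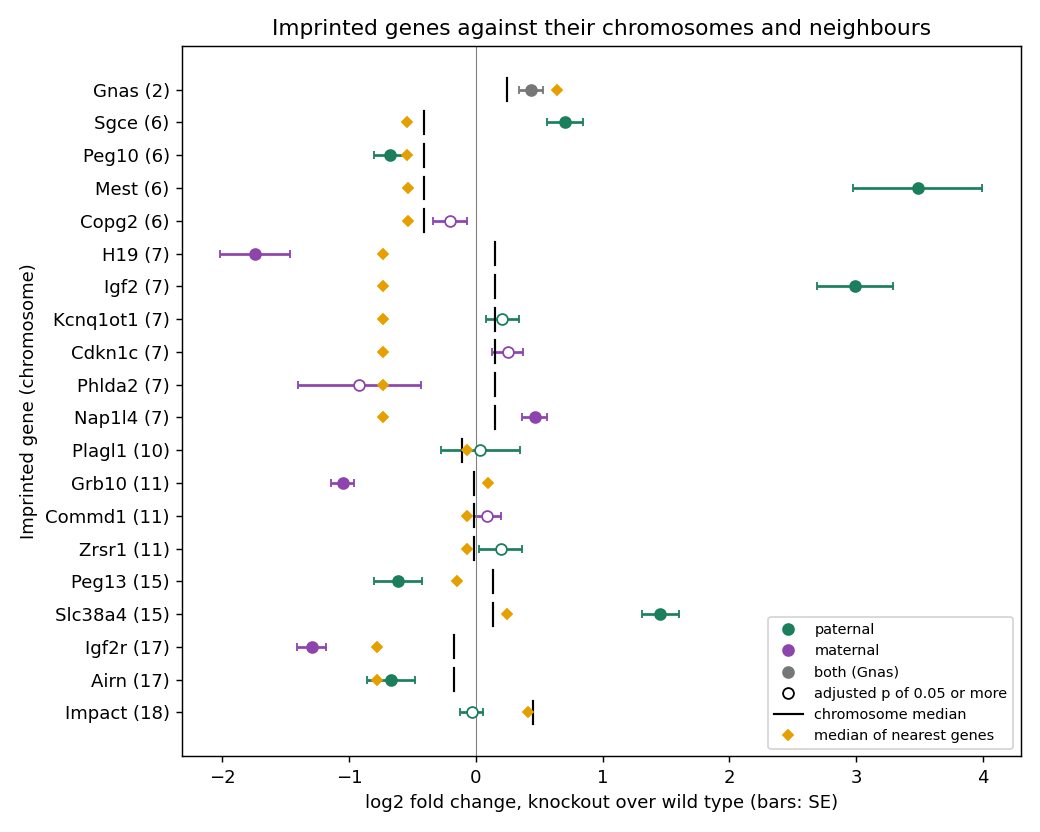
Log2 fold change (knockout over wild type, with its SE) of the 20 tested imprinted genes that had counts in both groups. Colour gives the parental copy each is read from by general knowledge. Black bars are medians of their chromosome, and orange diamonds are medians of their nearest tested genes. Filled points were called. Igf2 and Mest lie at 2.99 and 3.48, over 3 units above their neighbours, and Airn and Peg10 lie close to theirs.

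Other members were close to on and off. Peg3, a zinc finger protein of the proximal chromosome 7 cluster that is linked to growth and maternal care, had 13, 34 and 15 counts in knockout and 0 in each wild-type library. With the 3 wild-type libraries set to a floor of 3 counts together, this is 21.6-fold higher. With the wild-type count left at 0, the lower end of the exact counting interval of the ratio was 17.1-fold. The adjusted p was 0.000732 in edgeR, in a test Peg3 too entered through the knockout counts alone. Even so, Peg3 reached only 0.383 to 1.04 CPM, or 0.0461 RPKM on average, above 2.8% of the tested genes.

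Rasgrf1, a guanine nucleotide exchange factor for RAS on chromosome 9, went the other way, with 0 counts in each knockout library and 20, 8 and 6 in wild-type libraries. This is 10.8-fold lower in knockout against the same floor. With the knockout count left at 0, the lower end of the exact counting interval of the ratio was 8.34-fold. Rasgrf1 did not pass the filter and was not tested, and its 20 nearest genes had a median log2 fold change of -0.78. Dlk1, a Notch-like membrane protein of chromosome 12 that marks preadipocytes, had 2 counts in knockout replicate 1 and 0 in the other libraries, at or under the floor in both groups.

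Peg13, a noncoding RNA of chromosome 15 that lies within the gene Trappc9, was lower. It had 198, 318 and 253 counts against 504, 408 and 322, with groups that did not overlap on the CPM scale and a log2 fold change of -0.61 ± 0.19 (SE; adjusted p = 0.0182 in edgeR). The call was lost without knockout replicate 1 (adjusted p = 0.0736) or 3 (0.0732). Its host Trappc9 had a log2 fold change of -0.26 ± 0.11 (SE; adjusted p = 0.0548). The 4723 bases of Peg13 all lie within Trappc9, so their reads cannot be told apart.

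Gnas, which encodes the stimulatory G protein alpha subunit and several transcripts of other parental origin, was the most abundant member, at 811 ± 25.2 CPM in knockout and 601 ± 35.2 CPM in wild type (SD, n = 3 each). Its log2 fold change of 0.43 ± 0.09 (SE; adjusted p = 0.00278 in edgeR) lay below the median of 0.64 of its 20 nearest genes, of which 12 were higher and 0 lower. The antisense RNA Nespas, which overlaps it and is read from the paternal copy, had a log2 fold change of 0.91 ± 0.14 (SE; adjusted p = 0.000254).

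The remaining 4 members were not called, and their groups overlapped. Impact, an inhibitor of the amino acid sensor kinase GCN2, had 59.7 ± 2.31 CPM in knockout and 61.1 ± 2.87 CPM in wild type (SD, n = 3 each), while the 434 tested genes of chromosome 18 had a median log2 fold change of 0.45. Plagl1, a zinc finger regulator of other imprinted genes, had 52, 31 and 43 counts against 50, 52 and 28. Its log2 fold change was 0.04 ± 0.31 (SE; adjusted p = 0.929 in edgeR), and its sign turned under 5 of the alternatives.

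Commd1, an adaptor of copper transport and ubiquitination, and Zrsr1, a splicing factor gene that arose by retroposition into an intron of Commd1, had log2 fold changes of 0.09 ± 0.11 and 0.19 ± 0.17 (SE; adjusted p = 0.47 and 0.338 in edgeR). The log2 count ratio of Commd1 to Zrsr1 was 1.88 ± 0.192 in knockout and 1.99 ± 0.157 in wild type (SD, n = 3 each; difference -0.11, exact permutation p = 0.6, adjusted 0.7). Scaled by library totals only, Commd1 turned to -0.03.

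**Figure D3:**
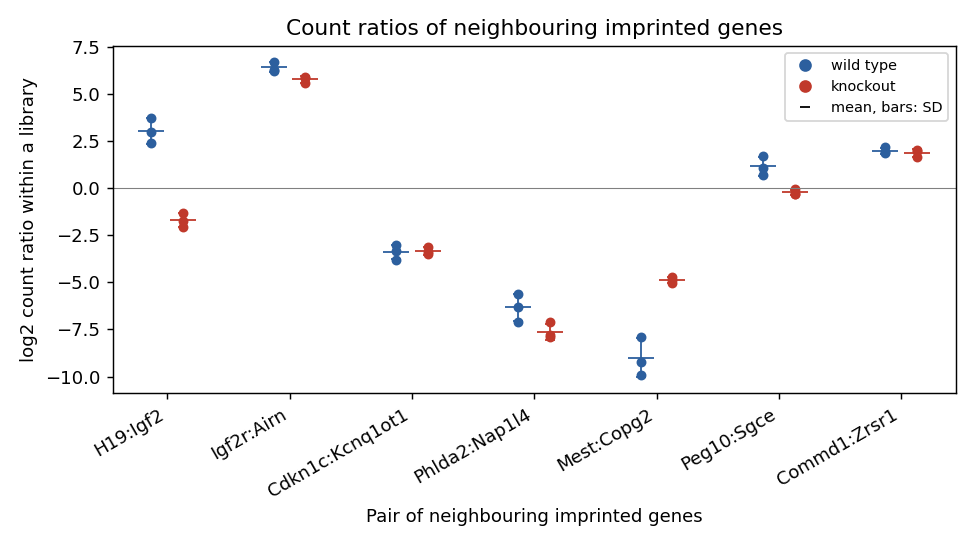
Log2 ratio of the counts of 2 neighbouring imprinted genes within each library (vertical axis) for 7 pairs, in wild type (blue) and knockout (red), with the mean and SD of each group. The groups do not overlap for 5 pairs, with the widest gap for H19 to Igf2, from 3.03 in wild type to -1.70 in knockout, and they overlap for Cdkn1c to Kcnq1ot1 and Commd1 to Zrsr1.

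By chromosome, the called members thus lay on both sides wherever more than 1 was called on a chromosome, except on chromosome 17. On chromosome 7, 3 of 7 tested members were higher (Igf2, Peg3 and Nap1l4) and 1 was lower (H19). On chromosome 6, 2 of 4 were higher and 1 was lower, and on chromosome 15, 1 of 2 was higher and 1 lower. On chromosome 17, 2 of 2 were lower. On chromosome 11, 1 of 3 was lower and 0 higher, on chromosome 2 the only member was higher, and on chromosomes 10 and 18 the only tested member was not called. On the CPM scale, the groups of 14 of the 21 tested members did not overlap, against 67.3% of all tested genes. The 14 include Peg3 and Mest, which passed the filter on low counts only through the knockout libraries.

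Of 53 other imprinted or imprinting-linked genes, 35 had a row and 24 were tested, of which 10 were higher and 8 lower (75% called, against the 60.9% above), with a median log2 fold change of 0.24. Cobl, among the 8 lower, had 3, 3 and 4 counts in knockout and 44, 48 and 71 in wild-type libraries. It passed the filter on low counts only through the wild-type libraries, where it was high, so it had to differ. Herc3, a ubiquitin ligase gene on chromosome 6, fell from 30.9 ± 1.01 to 5.29 ± 0.686 CPM (SD, n = 3 each; log2 fold change -2.54, adjusted p = 2.29e-07 in edgeR). Cd81, a tetraspanin gene of the Kcnq1ot1 region, fell from 220 ± 33.2 to 71.3 ± 8.44 CPM (-1.63, adjusted p = 5.59e-06). Blcap and Mcts2, on chromosome 2, rose with log2 fold changes of 1.35 and 1.06, Atp10a, a lipid flippase gene, rose with 0.96, and the serotonin receptor gene Htr2a rose 3.99-fold.

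Among list genes next to members, Tssc4 and Osbpl5 of the distal chromosome 7 region were not called (log2 fold changes -0.23 and 0.21, adjusted p = 0.0683 and 0.0976 in edgeR), nor was Kcnq1 (0.84, adjusted p = 0.263). Ube3a, the ubiquitin ligase gene whose maternal copy is used in neurons, rose with a log2 fold change of 0.51 (adjusted p = 0.00125). Scaled by library totals only, 9 of the list were higher and 11 lower. Of the imprinted small RNA genes listed (46 names of microRNA and small nucleolar RNA genes), 0 had a row, and they were not analysed here.

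Of 29 genes that set, keep or read imprints, 27 were tested, and 5 were higher and 5 lower (37% called, against the same 60.9%), with a median log2 fold change of -0.06. Dnmt1 had 443 ± 7.97 CPM in knockout and 446 ± 22.5 CPM in wild type (SD, n = 3 each; adjusted p = 0.927 in edgeR). Zfp57, Ctcf, which binds the H19 control region, and Uhrf1, which guides DNMT1, were not called either (log2 fold changes 0.10, -0.09 and 0.13).

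Trim28, the partner of ZFP57, was lower with a log2 fold change of -0.47 (adjusted p = 0.00203 in edgeR), as were the histone methyltransferase gene Ehmt2 (-0.74, adjusted p = 0.000114), the cohesin gene Smc3 (-0.53) and Atrx (-0.54). Dnmt3b, a methyltransferase that sets new methylation, rose with 1.45 (adjusted p = 6.47e-05). Its germ line cofactor gene Dnmt3l had 45, 65 and 46 counts in knockout and 1, 2 and 0 in wild-type libraries. This is a ratio of 54.4 (counting interval 18.3 to 267), at 1.54 ± 0.386 CPM in knockout (SD, n = 3). Dnmt3l, among the genes called higher, passed the filter on low counts only through the knockout libraries, so it had to differ. Without wild-type replicate 2, which held 2 of the 3 wild-type counts, its fitted log2 fold change moved from 5.61 to 6.41. Scaled by library totals only, 3 of the list were higher and 9 lower. With knockout replicate 3 left out, 3 were higher.

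Of 14 genes that receive, bind or translate IGF2, 12 were tested, of which 2 were higher and 6 lower (66.7% called, near the 60.9% of all tested genes), with a median log2 fold change of -0.39. Igfbp5, a secreted IGF binding protein, had 1754, 1263 and 2074 counts in knockout against 14, 0 and 5 in wild-type libraries, or 49.6 ± 10.2 against 0.176 ± 0.172 CPM (SD, n = 3 each; adjusted p = 1.41e-06 in edgeR). Like Peg3, Mest and Dnmt3l, it passed the filter on low counts through the knockout libraries, where it was high, so it had to differ. The fitted log2 fold change of Igfbp5 was 8.10, and 9.28 and 7.48 without wild-type replicate 1 and 2. Igfbp4, another of these, fell from 337 ± 65.5 to 122 ± 9.31 CPM (log2 fold change -1.47, adjusted p = 1.44e-05).

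The genes Igf2bp3 and Igf2bp2, whose products bind IGF2 mRNA, were lower with log2 fold changes of -1.06 and -0.53, and Igfbp7 with -1.03. The receptor genes Igf1r and Insr were lower too, with log2 fold changes of -0.51 and -0.50 (adjusted p = 0.00476 and 0.0062 in edgeR). Irs1, an adaptor of the insulin and IGF receptors, was higher with 0.50 (adjusted p = 0.00268 in edgeR). These lists were chosen with earlier results of the data known and stand here as counts beside the background, not as tests of the lists.

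**Figure D4:**
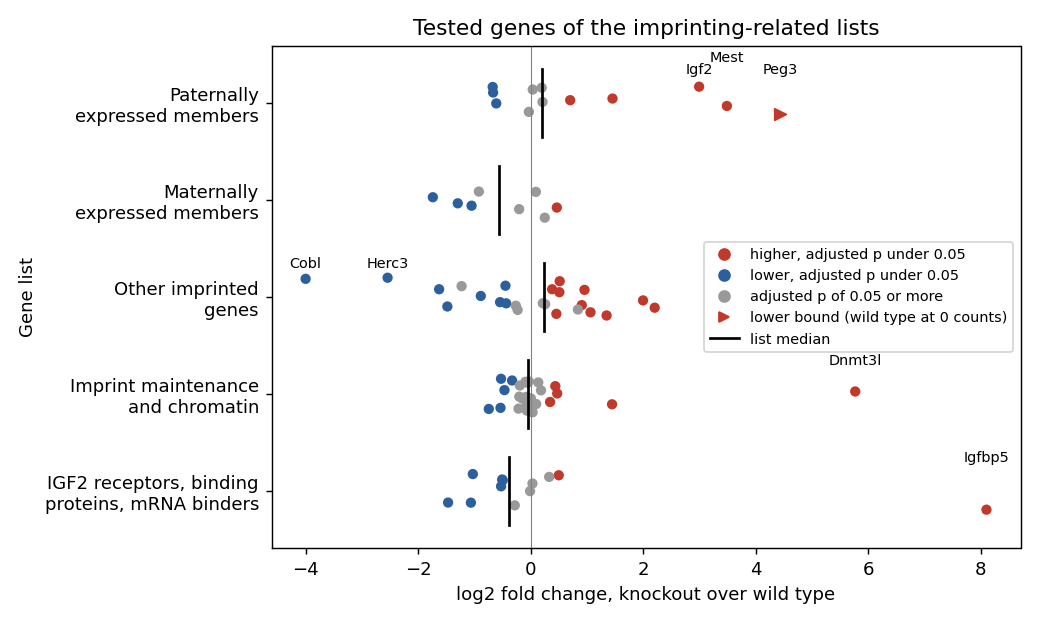
Log2 fold change (knockout over wild type, horizontal axis) of each tested gene in 5 lists, red where higher and blue where lower at an adjusted p under 0.05, grey where not called, with the list median as a bar. The triangle for Peg3 (lower bound in the legend) is its ratio with wild type set to the floor of 3 counts. The counting interval of that ratio reaches below the triangle. Dnmt3l is drawn at its ratio of summed counts. The medians lie at 0.20 and -0.56 for paternally and maternally expressed members, with members on both sides of 0 in each list.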

How the data were processed

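Total RNA had been extracted with Trizol and sequenced from stranded libraries, per the labels' protocols. The authors deposited raw counts, as whole numbers per gene for 6 libraries, with symbol and chromosome, per the file headers. Per the submitters' processing notes, STAR 2.5.1b and mm10 were used. How reads were counted (program, annotation, strand) is not stated in any label or header, so reads of overlapping genes cannot be told apart.

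Rows were taken by symbol. Columns were matched to labels by group and number. The members and lists were chosen with earlier results of these data known. Each member is described, with up to 6 genes of other lists by p and those next to a member. Uhrf1, Zfp57, Ctcf, Dnmt1, Ube3a, Trappc9, Cobl, Igf1r and Insr were named after their values were seen.

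Tests on the count table used edgeR 4.0.16 under R 4.3.3 (filterByExpr, TMM scaling, robust quasi-likelihood model of genotype alone, two-sided, Benjamini-Hochberg adjustment over 15039 genes at 0.05). The SE is the log2 fold change over the root of the test's F. Genes with 3 or fewer counts over a group were given as count ratios, or as ratios to a floor of 3 counts where a group had 0. RPKM used GENCODE M21 exon lengths, and positions RefSeq GRCm38, the assembly that mm10 denotes (94.4% of rows found). Within-library ratios had exact permutation tests (scipy 1.17.1) for the 7 of 12 planned pairs with rows for both genes. Promoter sequences came from RefSeq. Alternatives were other scalings and filters, a replicate block, DESeq2 1.42.0, limma 3.58.1 (voom), leaving out structural RNA or libraries, and chromosome or neighbour medians as the reference (the last chosen after seeing the data). The script was tested on simulated counts with known fold changes.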

Additional observations from a re-analysis of the deposited data

How the results depend on the processing

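Of the imprinted genes, 7 higher and 6 lower were called, and leaving out single libraries gave 7 to 8 higher and 5 to 7 lower. The calls of Igf2, H19, Igf2r, Grb10, Slc38a4, Peg10, Sgce, Gnas and Nap1l4 kept their direction and passed under every fit tried (other scalings, filters, tests and libraries left out). With at least 1 CPM in 3 libraries, however, Igf2 entered only through the knockout libraries. H19 reached 1 CPM by library totals in all 3 libraries of wild type only. For Igf2 and H19, that filter therefore says nothing on stability. Peg3 and Mest entered the test through the knockout libraries alone, so their calls say nothing on stability, and with at least 1 CPM in 3 libraries they could not be tested. That filter left 3 paternally expressed genes higher in place of 5. It gave 8 lower regulators of imprints in place of 5. With library totals only, 3 regulators were higher and 9 lower, and leaving out single libraries gave 3 to 5 higher. Library totals shifted the median of all tested genes from -0.04 to -0.16. Of the genes not called, the sign of Plagl1 turned with library totals (-0.09), with at least 1 CPM in 3 libraries (0.00, that is -0.002), without both libraries numbered 3 (-0.033) and with single libraries left out (range -0.14 to 0.21; -0.14 without the first knockout library, -0.043 without the third wild-type one). That of Commd1 turned with library totals (-0.027), and that of Impact without knockout replicate 3 (0.02; range with single libraries left out -0.053 to 0.02). Measured from their 20 nearest genes, Gnas turned to -0.21 and Airn to 0.11. The cause of these shifts was not tested. With single libraries left out, the difference in log2 count ratio ran from -0.17 to 0.21 for Cdkn1c to Kcnq1ot1, from -0.17 to 0.00 (0.001) for Commd1 to Zrsr1 and from -5.06 to -4.38 for H19 to Igf2. Deviations of same-numbered libraries correlated weakly (0.10, 0.01 and 0.21, where other pairs gave -0.18 to 0.15). Not every library correlated best with its own number, though those numbered 3 did. With the replicate block, 7 imprinted genes were higher and 6 lower, as without it. Depth limits the genes with few counts (Mest, Peg3, Phlda2, Plagl1, Rasgrf1, Slc22a18 and Dlk1, and Igf2 in wild type).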
